A study of Mus musculus with 2 samples.

Results

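Interferon-stimulated genes are a set of 47 genes whose transcription is switched on by interferons. They were listed by name, with earlier results of these data known, and looked up in the liver mRNA sequencing of control and iFIRKO mice. Each of the 47 symbols was present, among 53241 distinct symbols in all, and each had enough reads to be compared. In iFIRKO liver the value lay below that of control for 45 of the 47 genes, against 48.7% of all genes tested. It was more than 1.5-fold lower for 19 of them, or 40.4%, against 7.29% of all genes tested, and more than 1.5-fold higher for none, against 4.46%. As the list was drawn up with such results known, these shares describe it and are not independent evidence of a direction.

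Interferons are secreted proteins that warn cells of infection. Type I interferons signal through IFNAR1 and IFNAR2, and the kinases JAK1 and TYK2 then switch on a complex that holds STAT2 and IRF9 and binds a promoter element named ISRE. Interferon gamma signals through IFNGR1 and IFNGR2 and acts on another element named GAS. The genes they induce encode sensors of foreign nucleic acid, proteins that block viral replication, ubiquitin-like modifiers, and GTPases that attack the vacuoles of intracellular microbes. In liver, hepatocytes, Kupffer cells and endothelial cells are all able to respond, and a low level of these genes is present without infection.

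Male mice were injected intraperitoneally at 7 weeks of age with tamoxifen at 100 mg/kg on 5 days, and the liver was taken 3 days after the last dose. The iFIRKO animals had the genotype Adipoq-CreERT2; Insr flox/flox, in which the adiponectin promoter drives the inducible Cre in adipocytes, so that the insulin receptor is lost there and not in hepatocytes. The control animals are WT in the sample labels and IR flox/flox in the paper, and received the same tamoxifen. There was 1 library for each genotype, and neither source says whether it came from 1 mouse or from a pool. No difference given here therefore has a replicate check, and no p-value was computed. The deposited values, returned to the linear scale, are normalized reads, which sum to 42003900 for control and 41579600 for iFIRKO. *Insr* had 4246 and 3692 normalized reads, which gave a log2 fold change of -0.20, which is no check of a deletion confined to adipocytes. The defining hepatocyte transcript *Alb* was abundant in both, with a log2 fold change of -0.08.

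The promoters of these genes were first searched for both elements. RefSeq promoter windows of GRCm38.p6, running from 250 bases before to 50 bases after a transcription start, were found for 36 of the 47 genes, and the windows were searched on both strands for the core of ISRE, taken as GAAA, any 2 bases and again GAAA. Overlapping matches were counted once per gene. A match was present in 20 of the 36 genes, or 55.6%, against 3.99% of all 27025 genes with a window and 3.94% of the genes tested. The GAS core TTCNNNGAA, which reads the same on both strands, was in 11 of the 36 genes (30.6%) against 9.55% of all genes. Both were in 7 of them (19.4%), against 0.614%. A match is a stretch of letters and not evidence that a factor binds there.

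The windows of the genes on which the results turn are shown with the ISRE matches in capitals, overlapping matches forming 1 block, read 5′ to 3′ on the strand of the gene and upstream of the RefSeq start. For *Tgtp1*, *Irgm2* and *Igtp* the first capital block is the GAS match. They were picked among the genes with a match, and show it in *Oas3*, *Tgtp1* and *Oas1g*, in paralogs that share it, and in *Stat2*, whose value was nearly level. Of the genes with large differences, *Ifit2*, *Oasl2* and *Ifi44* held no ISRE match and *Mx1* had no window.

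Oas3, chr5:120777715-120777744, minus strand: gcagggaggaGAAAACGAAAgtgaagggag
Oas1g, chr5:120887614-120887641, minus strand: cccttctcggGAAATGGAAACTGAAAat
Oas1a, chr5:120907526-120907555, minus strand: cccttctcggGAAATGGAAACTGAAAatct
Ifit3, chr19:34583363-34583426, plus strand: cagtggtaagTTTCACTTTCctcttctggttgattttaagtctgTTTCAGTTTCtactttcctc
Ifit3b, chr19:34607759-34607822, plus strand: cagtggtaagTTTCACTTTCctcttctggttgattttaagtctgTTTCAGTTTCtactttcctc
Ifit1, chr19:34640775-34640823, plus strand: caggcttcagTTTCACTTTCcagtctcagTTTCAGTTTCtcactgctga
Isg15, chr4:156200865-156200906, minus strand: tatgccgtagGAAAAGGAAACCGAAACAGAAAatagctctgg
Gbp3, chr3:142559989-142560024, plus strand: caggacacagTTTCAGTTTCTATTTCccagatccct
Tgtp1, chr11:48992304-48992344, minus strand: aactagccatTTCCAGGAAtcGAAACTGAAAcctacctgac
Irgm2, chr11:58214892-58214932, plus strand: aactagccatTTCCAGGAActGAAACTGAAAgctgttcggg
Igtp, chr11:58199501-58199541, plus strand: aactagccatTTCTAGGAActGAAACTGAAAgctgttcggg
Stat2, chr10:128270266-128270295, plus strand: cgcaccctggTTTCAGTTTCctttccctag

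In *Tgtp1*, *Irgm2* and *Igtp* the first base of the ISRE match lay 11 bases after the first base of the GAS match. The promoter windows of *Ifit3* and *Ifit3b* share an identical run of 169 bases, those of *Oas1a* and *Oas1g* one of 73 bases, and those of *Irgm2* and *Igtp* one of 61 bases. In GENCODE M21 the stretches shown for *Tgtp1* and *Irgm2* lie in introns of these genes, that of *Tgtp1* also within *Olfr56*, and the others lie between annotated genes. By role, a match to ISRE was in 7 of 8 GTPase genes with a window, in 3 of 4 IFIT genes, in 3 of 5 OAS genes and in 3 of 3 sensor genes. It was in 1 of 4 transcription factor genes, *Stat2*, and in none of the 4 genes of the mixed group that holds *Ifi44*. Among 45 further interferon-stimulated genes with a window, 26 held an ISRE match (57.8%), against 3.99% of all genes. A match was in 2 of 10 genes of MHC class I and the immunoproteasome. None of 10 Kupffer cell and macrophage, 6 endothelial and 6 hepatocyte marker genes held one. At 3.99% of all genes, finding none does not set such short lists apart.

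**Figure D1:**
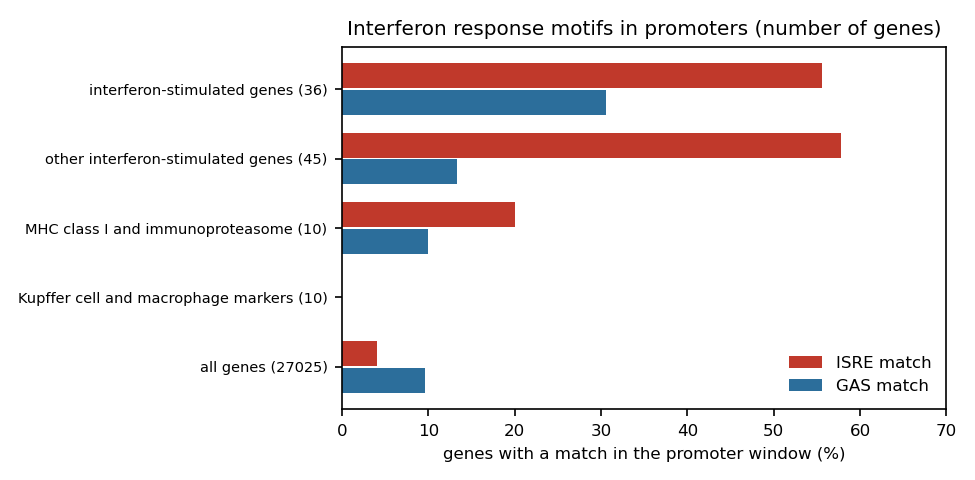
Share of genes, in percent, with a match to the ISRE core (red) or the GAS core (blue) in the promoter window, for 5 sets of genes with the number of genes in brackets. The interferon-stimulated genes reach 55.6% for ISRE, against 3.99% of all genes.

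To compare the livers, 4.18 normalized reads were added to each value, and the log2 of iFIRKO over control was taken as the fold change. A gene was tested if it reached 41.8 normalized reads in 1 or both libraries. It was called lower or higher past a fold of 1.5, the limit used in the study. Of the 47 genes, 19 (40.4%) were lower, against 7.29% of all 13390 genes tested, and 0 were higher, against 4.46% of all genes tested. Their median log2 fold change was -0.48, against 0.01 over all genes tested. Among the 9765 genes whose mean level lay within the range of these 47, from 199.7 to 20971 normalized reads, 4.02% were lower.

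**Figure D2:**
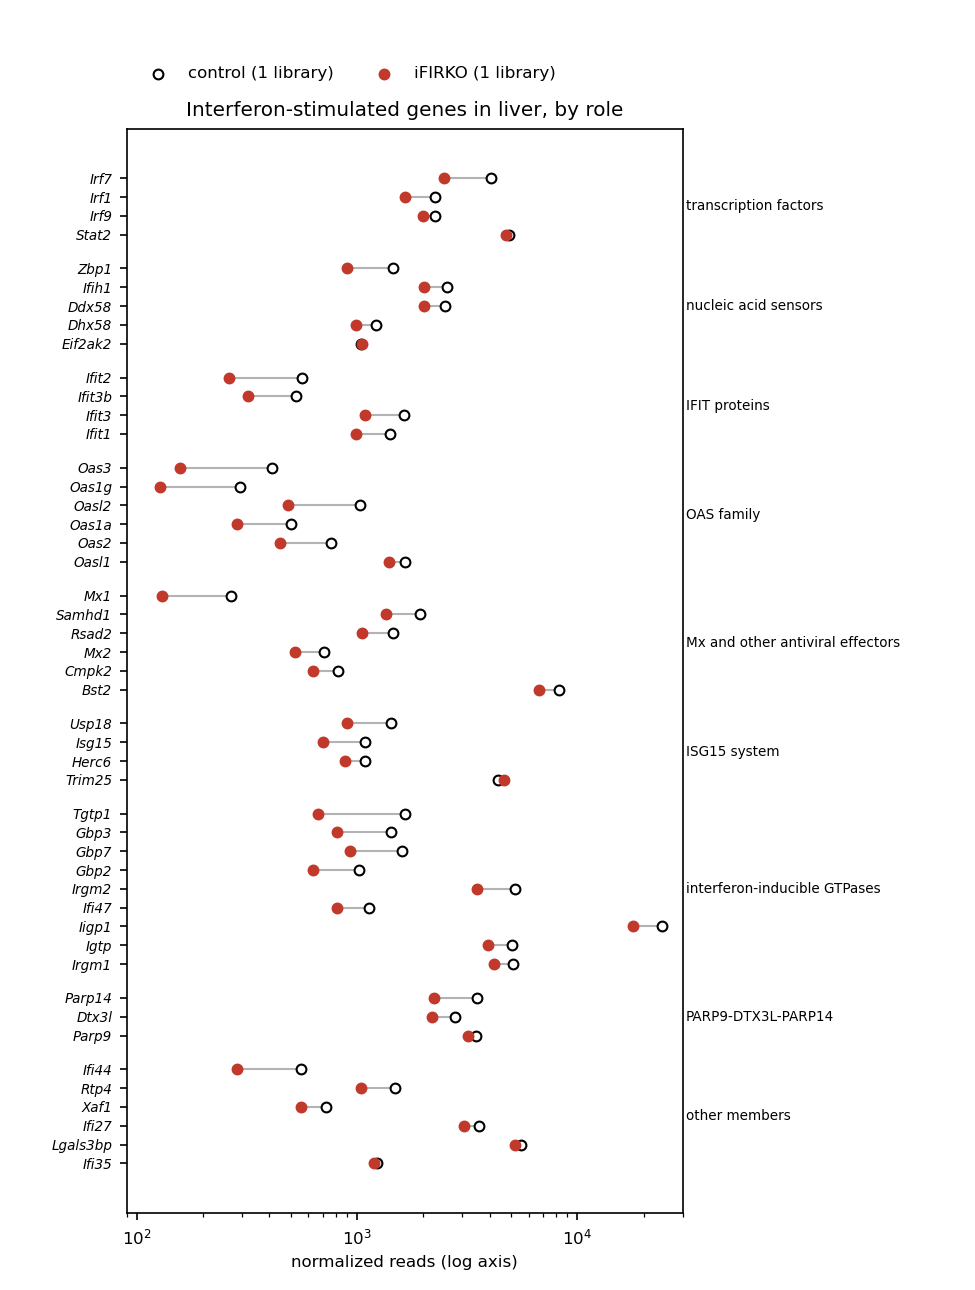
Normalized reads of each of the 47 genes in the control library (open circles) and the iFIRKO library (red circles) on a log axis, grouped by role. The iFIRKO circle lies to the left of the control circle in 45 genes, with *Eif2ak2* and *Trim25* the exceptions.

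Counting error alone was given as a 95% exact Clopper-Pearson interval on estimated read pairs, which compares the libraries and not the genotypes. The interval lay below 0 in 43 of the 47 genes, and above 0 in 1, *Trim25*. In 10 genes it lay wholly past the fold of 1.5 downwards, and in 18 it spanned that limit. For those 18 the side of the limit is not settled at this depth. Intervals were not computed over all genes tested, so these counts have no background share and describe the 47 only. The call nearest the limit was that of *Ifit3* (-0.59), and just outside it was *Irgm2* (-0.58). As the libraries are whole liver, fewer cells of a responding type and less RNA of these genes in each cell cannot be told apart.

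**Figure D3:**
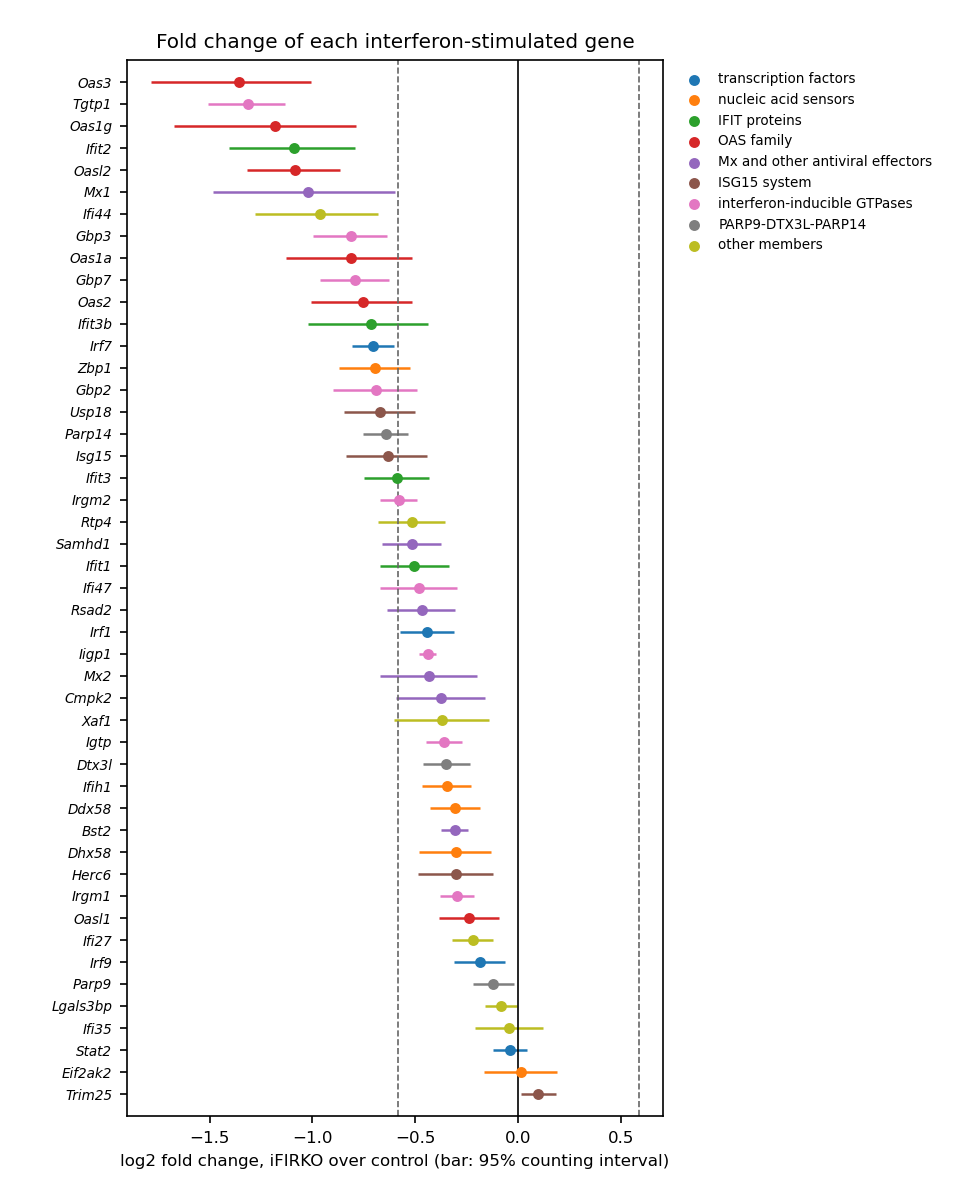
Log2 fold change of each gene (point) with its 95% counting interval (bar), ordered by value and coloured by role. Dashed lines mark a fold of 1.5 in each direction, and the points run from -1.36 for *Oas3* to 0.10 for *Trim25*.

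By role, genes of the OAS family had the lowest median. Where a pair of levels is given, the first is that of control and the second that of iFIRKO, and a value in brackets is the log2 fold change. OAS enzymes respond to double-stranded RNA by making oligoadenylates that activate RNase L. Of the 6 OAS genes among the 47, 5 were lower, with a median log2 fold change of -0.95. *Oas3* (ENSMUSG00000032661.9, minus strand of chromosome 5, 120753098 to 120777661 in GRCm38) had 411 normalized reads in control against 158 in iFIRKO. Its log2 fold change of -1.36 (counting interval -1.78 to -1.01) was the lowest of the 47 genes. *Oas1g* had 295 and 128 normalized reads (-1.18), and *Oas1a* had 500.4 and 284 (-0.81). These neighbouring paralogs could not be fully separated, since 47.6% of the 75-base words in the *Oas1a* transcript also occur in *Oas1g*. Summed, they had 796 normalized reads in control against 411 in iFIRKO, for a log2 fold change of -0.95. *Oas2* had 758 and 447 normalized reads (-0.75), and *Oasl2*, an OAS-like gene, had 1034 and 484 (-1.09). The exception among these 6 was *Oasl1*, which in mice restrains translation of *Irf7* mRNA. It had 1647 and 1395 normalized reads, which gave a log2 fold change of -0.24 (counting interval -0.39 to -0.09). Outside the 47, *Oas1b* was lower (-0.91), whereas *Oas1c* was not called (-0.07, counting interval -0.80 to 0.66).

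IFIT proteins bind viral RNA, and IFIT1 recognizes caps that lack a methyl group. Of the 4 IFIT genes, which lie side by side on chromosome 19 from 34550694 to 34650009, 3 were lower, and their median log2 fold change was -0.65. *Ifit2* had 564 normalized reads in control against 263 in iFIRKO, for a log2 fold change of -1.09 (counting interval -1.41 to -0.79). The values of *Ifit3* were 1641 and 1089 (-0.59), and those of *Ifit3b* were 526 and 319 (-0.71). They share 41.1% of the 75-base words of *Ifit3*, and their sum had a log2 fold change of -0.62. *Ifit1*, at 1406 and 990 normalized reads, did not pass the limit (-0.50). All 4 were thus below the control value.

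Among the other antiviral effectors only *Mx1* was lower. *Mx1*, a GTPase that blocks influenza virus, had 269 normalized reads in control against 130.4 in iFIRKO, for a log2 fold change of -1.02 (counting interval -1.49 to -0.60). Its neighbour *Mx2* had 705 and 522 (-0.43). *Rsad2*, which encodes viperin, an enzyme that makes a chain-terminating nucleotide, had 1456 and 1050 normalized reads (-0.47). The nucleotide kinase gene *Cmpk2*, which lies beside it, had 815 and 627 (-0.38). *Samhd1*, whose product degrades deoxynucleotides, had 1928 and 1347 (-0.52). *Bst2*, which encodes tetherin, a protein that holds budding virus at the cell surface, had 8250 and 6661 normalized reads, with a log2 fold change of -0.31. Per kilobase of exon *Bst2* was the most abundant of the 47 genes, with 9136 normalized reads per kilobase in control and 7377 in iFIRKO.

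GTPases induced by interferon gamma were lower in 4 of 9 cases, with a median log2 fold change of -0.58. The guanylate-binding protein genes *Gbp2*, *Gbp3* and *Gbp7* lie together on chromosome 3, and all 3 were lower by similar amounts. *Gbp3* had 1428 normalized reads in control against 812 in iFIRKO (-0.81), *Gbp7* had 1606 and 926 (-0.79), and *Gbp2* had 1023 and 631 (-0.69). The immunity-related GTPases differed more among themselves. *Tgtp1* had 1653 normalized reads in control against 663 in iFIRKO, for a log2 fold change of -1.31. In its transcript 84.8% of 75-base words also occur in the copy *Tgtp2*, and the sum of both had 2653 and 1091 normalized reads, with a log2 fold change of -1.28 (counting interval -1.43 to -1.14). *Irgm2* had 5220.5 and 3488 (-0.58), *Igtp* had 5064 and 3944 (-0.36) and *Irgm1* had 5119 and 4163 (-0.30), and these regulatory GTPases all stayed inside the limit. So did *Ifi47*, with 1134 and 811 normalized reads (-0.48). *Iigp1*, another effector GTPase, had 24150 and 17793 normalized reads, with a log2 fold change of -0.44 (counting interval -0.48 to -0.40).

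The transcription factors of the response were less uniform. *Irf7*, which amplifies type I interferon production, was lower, with 4044 normalized reads in control against 2478 in iFIRKO, for a log2 fold change of -0.71 and an interval from -0.81 to -0.60. *Irf1*, a factor downstream of interferon gamma, had 2252 and 1656 (-0.44). The remaining pair belong to the ISRE-binding complex. *Irf9* had 2266 and 1988 normalized reads (-0.19), and *Stat2* had 4872 and 4737 (-0.04). The counting interval of *Stat2*, from -0.12 to 0.04, includes no difference.

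Of 5 sensor genes, 1 was lower. *Zbp1*, which encodes a sensor of Z-form nucleic acid that can trigger cell death, had 1462 normalized reads in control against 902 in iFIRKO (-0.69). The RNA helicases followed at closely similar values. *Ifih1*, encoding MDA5, had 2567 and 2016 (-0.35), *Ddx58*, encoding RIG-I, had 2495 and 2012.5 (-0.31), and *Dhx58*, encoding LGP2, had 1216 and 983 (-0.30). *Eif2ak2*, encoding the kinase PKR that halts translation, was level, with 1041 and 1049 normalized reads, which gave a log2 fold change of 0.01 and an interval from -0.17 to 0.19.

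ISG15 is a ubiquitin-like protein that is attached to other proteins. *Isg15* had 1091 normalized reads in control against 701 in iFIRKO (-0.63), and *Usp18*, which removes ISG15 and dampens signalling from the type I receptor, had 1430 and 895 (-0.67). Both were lower. *Herc6*, the mouse ISG15 ligase, had 1088 and 883 (-0.30), although 22.4% of the 75-base words of its transcript also occur in the overlapping gene *Gm45193*. *Trim25*, a ubiquitin ligase that acts with RIG-I, was the 1 gene whose interval lay above 0, at 4348 and 4655 normalized reads, with a log2 fold change of 0.10 (interval 0.01 to 0.18).

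PARP9 and DTX3L form a complex of an ADP-ribosyltransferase and a ubiquitin ligase, and PARP14 is a related transferase. *Parp14* was lower, with 3506 normalized reads in control against 2241 in iFIRKO (-0.64). *Dtx3l* had 2780 and 2182 (-0.35), and *Parp9* had 3462 and 3184 (-0.12). The last pair overlap on opposite strands over 458 bases of exon, and no source says that reads were counted by strand. Of the remaining 6 genes, *Ifi44* was lower, with 559 and 284 normalized reads (-0.97). *Rtp4* had 1493 and 1042 (-0.52), and *Xaf1*, whose product opposes an inhibitor of apoptosis, had 722 and 557 (-0.37). *Ifi27* had 3565 and 3058 (-0.22), *Lgals3bp*, a secreted glycoprotein, had 5544 and 5223 (-0.09), and *Ifi35* had 1237 and 1198 (-0.05). The last value was within counting error of no difference.

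Genes with fewer reads per kilobase tended to have the lower fold changes. Over the 47 genes, the log2 fold change had a Spearman correlation of 0.51 and a Pearson correlation of 0.54 with the log2 mean number of normalized reads per kilobase. The points share both libraries, and paralogs share reads, so this is a description only. The range of levels was wide, from 58.1 to 9136 normalized reads per kilobase of exon in control, with a median of 421. In iFIRKO it ran from 22.3 to 7377, with a median of 285.

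**Figure D4:**
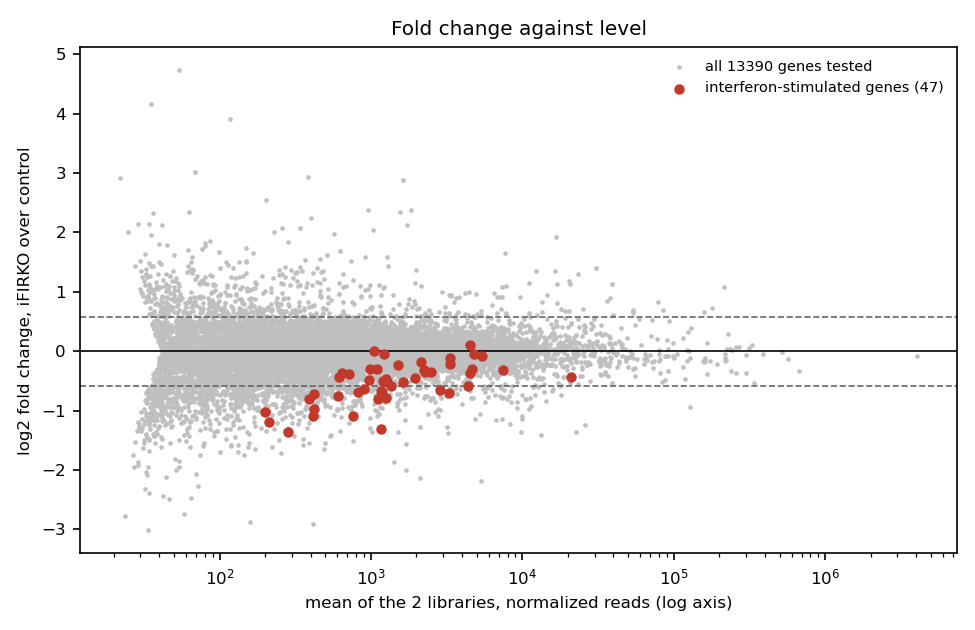
Log2 fold change against the mean of both libraries in normalized reads (log axis), for all 13390 genes tested (grey) and the 47 interferon-stimulated genes (red). Of the red points 45 lie below 0, and 19 are under the lower dashed line that marks a fold of 1.5.

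By position, 25 of the 47 genes lie in 9 clusters, taken as runs of members less than 200 kb apart. All 4 members in the OAS cluster on chromosome 5 (120730333 to 120907521) were lower. So were all 3 members in the Gbp cluster on chromosome 3 (142530342 to 142638008). The OAS stretch also holds genes outside the 47. Of these, *Oas1b* was lower (-0.91), *Oas1c* was not called (-0.07), and *Oas1f* and *Oas1h* were listed at 0 in both libraries. In the cluster of *Irgm1*, *Tgtp1* and *Ifi47* on chromosome 11 (48861968 to 49096974), values ran from -1.31 to -0.30. Of these members only *Tgtp1* was lower. *Tgtp2*, which is outside the 47, lies in the same stretch and was lower too (-1.22). For the promoter motifs, 10 of the 20 genes with an ISRE match were lower, with a median of -0.59, and 4 of the 16 genes without one, with a median of -0.37. Of the 11 genes with no window, 5 were lower, with a median of -0.52. For GAS, 4 of 11 genes with a match and 10 of 25 without one were lower, with medians of -0.52 and -0.47. These splits were not tested.

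Upstream of these genes, all 18 interferon genes examined, among them *Ifnb1*, *Ifng*, *Ifnl2* and *Ifnl3*, were listed at 0 in both libraries, the value given to scaled counts up to 1. Of 6 receptor genes 5 were tested and none was lower, against 7.29% of all genes tested, with a median log2 fold change of -0.32. *Ifnar2* had 2206 normalized reads in control against 1729 in iFIRKO (-0.35), and *Ifnar1* had 1299.7 and 1254 (-0.05). The interferon gamma receptor gene *Ifngr1* had 1105 and 883 (-0.32), and *Ifngr2* had 875 and 863 (-0.02). Both receptors thus had 1 chain at a nearly level value and 1 chain below control.

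Over all genes tested, 7.29% were lower and 4.46% higher. None of the 11 tested JAK-STAT genes was called in either direction, and their median log2 fold change was -0.10. *Jak2* had the lowest value of this list (-0.45, 779 and 570 normalized reads), and *Jak1* had 4590 and 4550.2 (-0.01). A list of innate sensors and the proteins that relay their signal had 15 tested genes, of which 0 were lower and 1 was higher, with a median of -0.24. The higher gene was *Tlr4*, which senses bacterial lipopolysaccharide and not nucleic acid. It had 65.1 and 116 normalized reads (0.79), or about 33 and 58 read pairs, and a counting interval of 0.19 to 1.495. *Tmem173*, encoding STING, had 190 and 130.1 (-0.53), while *Mavs* (-0.05) and *Irf3* (0.02) were near 0.

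Interferon-stimulated genes outside the 47 had a like share of calls. Of 59 such genes 54 were tested, and their median log2 fold change was -0.46. Of the 54, 23 (42.6%) were lower, against 7.29% of all genes tested, and 0 were higher, against 4.46%. This list too was drawn up with earlier results of these data known, so its share is not independent evidence. The lowest were *Gbp11* (-1.43), *Gbp2b* (-1.29) and *Tgtp2* (-1.22). At the most abundant end per kilobase, *Ifitm3* had 16671 and 14177 normalized reads (-0.23), *Ifitm2* had 7875 and 6778 (-0.22), and *Lgals9* had 25095 and 27105 (0.11). The 12 genes of MHC class I presentation and the immunoproteasome, which also respond to interferon, held no call in either direction. Their median was -0.27, with *B2m* at -0.09, *H2-K1* at -0.27 and *Tapbp* at -0.44. All 12 were below 0.

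Markers of several liver cell types were lower as well. Over all genes tested 7.29% were lower, the share to set beside each count below. Of 13 Kupffer cell and macrophage markers, 9 were lower, with a median log2 fold change of -0.62, and their summed level was 49382 normalized reads in control against 32202 in iFIRKO. *Cd5l*, a secreted protein of Kupffer cells, had 9323 and 5401 normalized reads (-0.79). Of 10 endothelial markers 3 were lower, with a median of -0.45 and sums of 15519 and 11381. B cell markers were lower in 4 of 5 tested genes (sums over all 6 of 808 and 368), T and NK cell markers in 3 of 3 tested genes (sums over all 11 of 382 and 189), and neutrophil markers in 3 of 3 tested genes (sums over all 6 of 675 and 252). The other 8 T and NK cell markers were too low to test, and of these *Cd8a* (0.01) and *Ncr1* (0.33) were not below control. The call of *Gzma*, a granule protease, rested on about 25 and 12 read pairs, and its counting interval of -2.17 to 0.01 includes no difference. Among neutrophil markers too low to test, *Ly6g* was above control (0.32), at about 1 and 2 read pairs, and *Cxcr2* and *Retnlg* were below it. For plasmacytoid dendritic cells, the cells that make the most type I interferon, the 5 markers summed to 112 and 84.6 normalized reads, and *Cox6a2* was listed at 0 in both libraries. Most of that sum was *Klk1*, which alone was tested, at 80.5 and 53.9 (-0.54), and was not called. Among those too low to test, *Siglech* was above control, with 11.9 and 17.9 (0.46), and *Ccr9* and *Pacsin1* were below it.

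None of the 7 stellate cell markers was called, with a median of 0.06 and sums of 9510.2 and 9869. None of 5 tested cholangiocyte markers was called either, with a median of -0.23 and sums over 6 of 2359 and 2048. Of 8 hepatocyte markers 1 was lower, *Apoa1*, with a median of -0.23 and sums of 5072250 and 4699660. As 7.29% of all genes tested were lower and 4.46% higher, these counts do not set such short lists apart from all genes. Values below 0 were found in 3 of 7 stellate cell, 5 of 5 cholangiocyte and 7 of 8 hepatocyte markers, against 48.7% of all genes tested. The summed level of the 47 interferon-stimulated genes, 121639 normalized reads in control against 93051 in iFIRKO, had a log2 ratio of -0.39, against -0.62 for the summed Kupffer cell and macrophage markers and -0.45 for the endothelial markers. The part of these cell types in the lower interferon-stimulated genes was not tested.

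**Figure D5:**
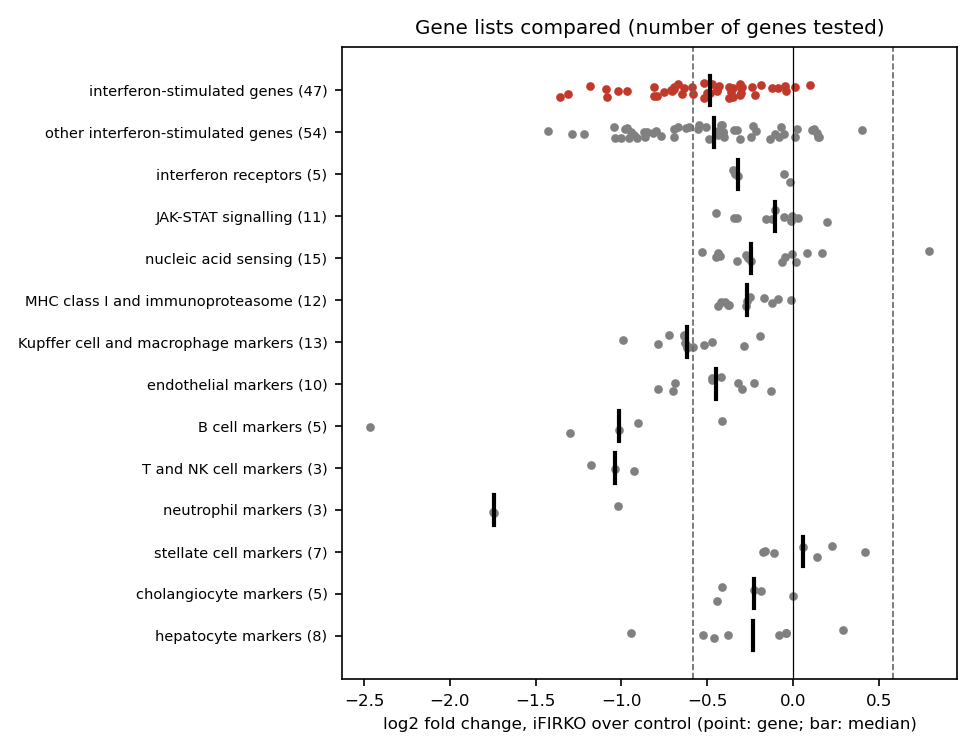
Log2 fold change of each tested gene (point) and the median (bar) for the 47 interferon-stimulated genes (red) and 13 other lists, with the number of genes tested in brackets. Dashed lines mark a fold of 1.5, and the medians run from -1.74 for 3 neutrophil markers to 0.06 for 7 stellate cell markers.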

How the data were processed

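Libraries were made from liver RNA with a stranded mRNA kit and sequenced on an Illumina NovaSeq. For each gene symbol, the authors deposited a normalized read count on the log2 scale, and a scaled count of 1 or less stands at 0. The build is mm10 in the submitters' processing notes. The aligner, counter and scaling are not given in the sources used here. Of 53342 rows, 101 repeated a symbol and the first was kept. The commonest value above 0, 1.987 normalized reads in control and 2.013 in iFIRKO, was taken as 1 read pair. Only 40.6% and 41.2% of values under 50 pairs were whole to within 0.01, so no count test was run. Intervals cover counting error only.

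Positions, exon lengths and transcripts came from GENCODE M21 (GRCm38), and promoters from RefSeq (GRCm38.p6). Of 243 listed symbols, 242 matched GENCODE. All 47 members could be named, and from other lists the 3 highest per kilobase and the 3 largest folds. Some other genes of these lists, such as *Ifnar1*, *Cd8a*, *Ncr1* and *Oas1c*, were named after their values were seen. The members and lists were chosen with earlier results of these data known. The calls and intervals were also run on simulated data made of whole read pairs. As most low values deposited here were not whole pairs, that run does not show how well the intervals cover in these data. Alternatives covered the pseudocount, minimum, scaling, fold, repeated symbols and close copies. Intervals were computed with scipy 1.17.1, tables with pandas 2.3.3 and numpy 2.4.6, and figures with matplotlib 3.10.9, under Python 3.11.15.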

Additional observations from a re-analysis of the deposited data

How the results depend on the processing

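The number of lower genes among the 47 was 19 and lay between 18 and 20 under a pseudocount of 41.8 normalized reads, the plain ratio, no minimum, the minimum in both libraries, a minimum 5 times as high, 3 other scalings and summed repeated symbols. Each minimum left all 47 genes tested and does not enter the fold change, so the count could not change under those settings. The count was 6 at a fold above 2, where 1.99% of all genes were lower. It was 11 of 36 when 11 genes of families with close copies were left out, where fewer genes were counted. Leaving out only the 5 genes with over 25% of their 75-base words in another gene, an alternative chosen after seeing the data as were the sums of paralogs, gave 14 of 42 and a median of -0.44. The share of all genes tested that were lower, 7.29%, was 4.30% with the larger pseudocount, 12.0% with no minimum and 4.34% with the higher minimum. No gene of the 47 was higher under any of these. The median of -0.48 ranged from -0.49 to -0.40. *Ifit3* lost its call with the larger pseudocount, and *Irgm2* gained one with median-ratio scaling and with the total taken without the 20 most abundant genes. Of 423 single values under other settings, 0 left their counting interval. Settings that change only the minimum leave each fold change as it was, so the values under them could not leave it. The median of the stellate cell markers changed sign to -0.029 with the higher minimum, where 6 genes were tested, and the neutrophil median moved to -1.10 and that of T and NK cell markers to -0.63 with the larger pseudocount. The median of the innate sensing list, -0.24, was -0.06 with no minimum or the higher one and -0.16 with median-ratio scaling or the total without the 20 most abundant genes. No paired analysis was possible because there was only 1 library for either genotype, and for that reason no replicate could be left out. Genes such as *Oas1g*, *Mx1* and *Oas3*, with the fewest reads, have the widest counting intervals.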
